A study of Mus musculus with 15 samples.

Results

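Retinal pigment epithelium (RPE)-like tissue was followed from Day 12 to Day 15 of culture, under continued activation of Wnt/β-catenin signalling, in the RNA of 3 Day 12 +Wnt and 3 Day 15 +Wnt libraries. The genes considered were all entries with at least 1 CPM (read counts scaled to library size) in at least 3 of the 15 libraries of the series, which left 13845 of 23244 entries. The tissue was grown from 1 mouse embryonic stem cell line, EB5 Rx::GFP+/-, in which GFP reports the eye field gene Rax. Cells were reaggregated in SFEBq culture, a serum-free suspension culture in which the outer epithelium of an aggregate can adopt optic identity. At Day 10 the GFP+ epithelium was cut out with forceps and moved to retinal maturation medium. CHIR99201, which inhibits the kinase GSK3, was added to the +Wnt explants at 3 μM for the first 24 h and then kept at 1 μM, so +Wnt names activation of the pathway inside the cell and not an added Wnt protein. The +Fgf explants, the other fate of the same starting tissue, received bFgf at 5 ng/ml with FBS at 10%, and were collected at the same days. Day 10 Rx::GFP+ tissue was collected before either treatment. Each group held 3 biological replicates. No unstimulated tissue of Day 12 or Day 15 was analysed here, so time in culture and time under CHIR99201 cannot be told apart, and the +Fgf tissue differs from the +Wnt tissue in serum as well as in signal.

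The RPE is the pigmented monolayer that lies behind the photoreceptors. It arises from the same optic vesicle as the neural retina, under the transcription factors Mitf and Otx2, and Wnt/β-catenin signalling favours its fate. As it matures, the RPE makes melanin in melanosomes, leaves the cell cycle, forms tight junctions, lays down Bruch's membrane with the choroid, carries ions and lactate across the tissue, and recycles retinoid for the photoreceptors. Neighbouring derivatives of the same neural epithelium include the ciliary margin and, further away, the choroid plexus.

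Library depth was alike in both groups, with 14318491 to 15711024 reads on genes at Day 12 and 12556998 to 15161284 at Day 15. A single read was worth 0.0620 to 0.0746 CPM at Day 15. Values below are normalized CPM for each library, followed by the ratio of group means where one is given. The log2 changes are differences on the log2(CPM + 0.3) scale, which understates the change of low genes, with ± the standard error, which rests on the spread within all 5 groups of the series. The p values are from limma, adjusted by Benjamini-Hochberg over all 13845 genes, and "rose" or "fell" is used of genes with an adjusted p under 0.05. Where levels are given as mean ± SD, n = 3. In bulk tissue, fewer cells of a type and less RNA per cell cannot be told apart.

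Between Day 12 and Day 15, 9417 genes passed this threshold (68% of those tested), with 4504 higher at Day 15 (32.5%) and 4913 lower (35.5%). Large changes were mostly increases. Of 2319 genes (16.7%) with a log2 change of 1 or more in size, 1850 rose (13.4%) and 469 fell (3.39%), so 79.8% of such changes were increases. Under quantile normalization this share was 58.4%, with 1318 increases and 940 decreases. With a log2 change of at least 3 there were 149 increases (1.08%) and 14 decreases (0.101%). The 1850 genes had a median of 2.58 CPM at Day 12 and 11.2 CPM at Day 15, and 71 of them had at most 3 reads in every Day 12 library. The 469 genes had a median of 41.6 CPM at Day 12 and 14.8 CPM at Day 15. The median log2 change over all tested genes was -0.021, and +Wnt libraries of the 2 days did not overlap for 10084 genes (72.8%). With so many genes past the threshold, the share of a gene list that rose or fell is read against these percentages.

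Genes for melanin synthesis and the melanosome, the organelle in which melanin is made and stored, rose as a group in size as well as in number. Of 26 members, 16 rose and 1 fell, with a median log2 change of 1.08, and 13 of the increases were of at least 1. Together they made up 0.271% to 0.334% of the summed signal of a library at Day 12 and 0.927% to 1.18% at Day 15. In +Fgf tissue the same genes made up 0.0627% to 0.0713% at Day 15. Tyr encodes tyrosinase, which catalyses the first step of melanin synthesis. Its level was 163, 145 and 127 CPM in the 3 Day 12 libraries and 667, 542 and 614 CPM in the 3 Day 15 libraries, 4.18-fold higher (log2 2.06 ± 0.18, adjusted p = 3.49e-08). The days did not overlap. Tyrp1, which acts later in the synthesis of eumelanin, was 83.4, 65.1 and 60.1 CPM at Day 12 and 586, 472 and 526 CPM at Day 15 (log2 2.93 ± 0.14, adjusted p = 3.46e-11). Dct, dopachrome tautomerase, was 223, 193 and 193 CPM and then 828, 687 and 788 CPM (log2 1.92 ± 0.14, adjusted p = 2.9e-09). All 3 enzymes were thus detected at Day 12 already and rose further, by 3.79-fold for Dct, 4.18-fold for Tyr and 7.59-fold for Tyrp1.

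The promoters of 6 melanin genes that rose are shown because E-boxes of the sequences CATGTG and CACGTG are the sites to which Mitf and related factors are known to bind. Each line gives the 250 bases before the annotated start, 5′ to 3′ on the strand of the gene, from RefSeq on GRCm38.p6 (mm10). Capitals mark CATGTG, its reverse complement CACATG, or CACGTG, which reads the same on both strands. The windows are chr7:87493513-87493762 (minus strand) for Tyr, chr4:80833963-80834212 (plus) for Tyrp1, chr14:118052247-118052496 (minus) for Dct, chr2:125067877-125068126 (plus) for Slc24a5, chr1:90914850-90915099 (plus) for Mlph and chr6:49036268-49036517 (plus) for Gpnmb.
Tyr: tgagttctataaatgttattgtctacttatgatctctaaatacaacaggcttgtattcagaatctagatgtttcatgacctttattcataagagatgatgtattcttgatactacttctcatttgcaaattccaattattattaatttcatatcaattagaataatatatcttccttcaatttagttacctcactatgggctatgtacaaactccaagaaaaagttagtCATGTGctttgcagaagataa
Tyrp1: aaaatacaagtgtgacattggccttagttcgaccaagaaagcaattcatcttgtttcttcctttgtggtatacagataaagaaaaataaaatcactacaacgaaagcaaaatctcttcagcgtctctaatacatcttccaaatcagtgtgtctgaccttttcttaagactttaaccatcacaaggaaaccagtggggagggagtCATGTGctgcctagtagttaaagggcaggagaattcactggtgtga
Dct: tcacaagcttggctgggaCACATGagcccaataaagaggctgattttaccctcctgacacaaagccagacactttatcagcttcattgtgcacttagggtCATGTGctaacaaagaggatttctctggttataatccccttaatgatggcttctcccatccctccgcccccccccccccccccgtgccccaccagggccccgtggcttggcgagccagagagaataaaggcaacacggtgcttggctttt
Slc24a5: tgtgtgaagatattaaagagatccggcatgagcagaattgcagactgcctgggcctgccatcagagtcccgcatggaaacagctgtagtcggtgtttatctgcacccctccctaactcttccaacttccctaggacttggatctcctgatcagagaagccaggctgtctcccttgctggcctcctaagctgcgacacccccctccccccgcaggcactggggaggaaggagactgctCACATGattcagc
Mlph: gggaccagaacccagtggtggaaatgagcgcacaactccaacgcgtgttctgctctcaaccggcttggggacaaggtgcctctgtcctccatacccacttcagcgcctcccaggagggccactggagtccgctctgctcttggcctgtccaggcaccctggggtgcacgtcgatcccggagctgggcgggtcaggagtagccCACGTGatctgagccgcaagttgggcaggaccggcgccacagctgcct
Gpnmb: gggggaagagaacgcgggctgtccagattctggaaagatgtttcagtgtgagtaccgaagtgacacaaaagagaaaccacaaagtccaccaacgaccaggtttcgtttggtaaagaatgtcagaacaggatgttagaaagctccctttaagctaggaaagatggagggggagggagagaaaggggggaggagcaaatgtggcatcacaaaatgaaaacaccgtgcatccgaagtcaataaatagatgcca
The match began 21 bases before the start in Tyr and 46 bases before it in Tyrp1. Dct held matches at 232 and 150 bases, Slc24a5 at 13 bases and Mlph at 48 bases. The Gpnmb window held neither sequence. Of the 16 melanin genes that rose, 12 had a promoter in the table used, and 9 of these (75%) held either sequence in at least 1 window. Of the 10 that did not rise, 9 had a promoter and 4 (44.4%) held either sequence. Over all 27025 genes of the table the share was 19.8%. The sequences were searched on both strands, and a match is a description of letters and not a measured site. The 4 genes without a promoter in the table were Gpr143, Mlana, Pmel and Slc45a2.

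Mlana, Gpnmb, Mlph and Slc24a5, genes of the structure and transport of the melanosome, were the 4 largest changes of the list. Pmel forms the fibrils on which melanin is deposited. Its level was 853, 724 and 575 CPM at Day 12 and 4204, 3112 and 3741 CPM at Day 15, 5.14-fold higher (log2 2.37 ± 0.15, adjusted p = 9.29e-10), although exons of Cdk2 and Dgka overlap it on the opposite strand. Mlana, a melanosomal membrane protein that associates with Pmel, was 2.33, 1.32 and 1.19 CPM and then 64.3, 45.0 and 53.1 CPM (log2 4.86 ± 0.30, adjusted p = 5.38e-10). Gpnmb, a melanosomal glycoprotein related to Pmel, was 121, 64.4 and 62.5 CPM and then 1548, 1161 and 1333 CPM (log2 4.08 ± 0.22, adjusted p = 1.55e-10). Every Day 15 value of these genes was several times the highest Day 12 value. Slc24a5, the potassium-dependent sodium and calcium exchanger whose loss lightens pigment, rose from 9.85 ± 3.01 to 157 ± 18.8 CPM, and its exons overlap Myef2 on the other strand. Mlph, the adaptor between Rab27a and the motor Myo5a in melanosome transport, rose from 1.14 ± 0.324 to 23.6 ± 0.725 CPM. The 1 decrease was Hps3, a subunit of a complex for melanosome biogenesis, with a log2 change of -0.39 ± 0.10 (adjusted p = 0.00322), and its exons overlap those of Cp. Under quantile normalization 7 members of the list fell rather than 1.

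The increase of the melanin list was larger in +Wnt than in +Fgf tissue over the same days. The median change in +Fgf was -0.0092, and in the test of the difference between the changes (+Wnt minus +Fgf) 16 of 26 members were positive and 1 (Hps3) negative, against 20.9% positive and 27% negative among all genes. The difference was 2.48 ± 0.22 for Pmel (adjusted p = 1.3e-07), 4.03 ± 0.32 for Gpnmb (adjusted p = 4.27e-08) and 1.78 ± 0.20 for Tyrp1 (adjusted p = 1.79e-06), all on the log2 scale. It was 4.00 ± 0.42 for Mlana (adjusted p = 9.88e-07), 1.42 ± 0.26 for Tyr (adjusted p = 0.000242) and 1.86 ± 0.19 for Dct (adjusted p = 8.25e-07). Tyrp1 and Tyr also rose in +Fgf tissue, by 1.14 and 0.65, from means of 15.2 and 17.7 CPM at Day 12.

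**Figure D1:**
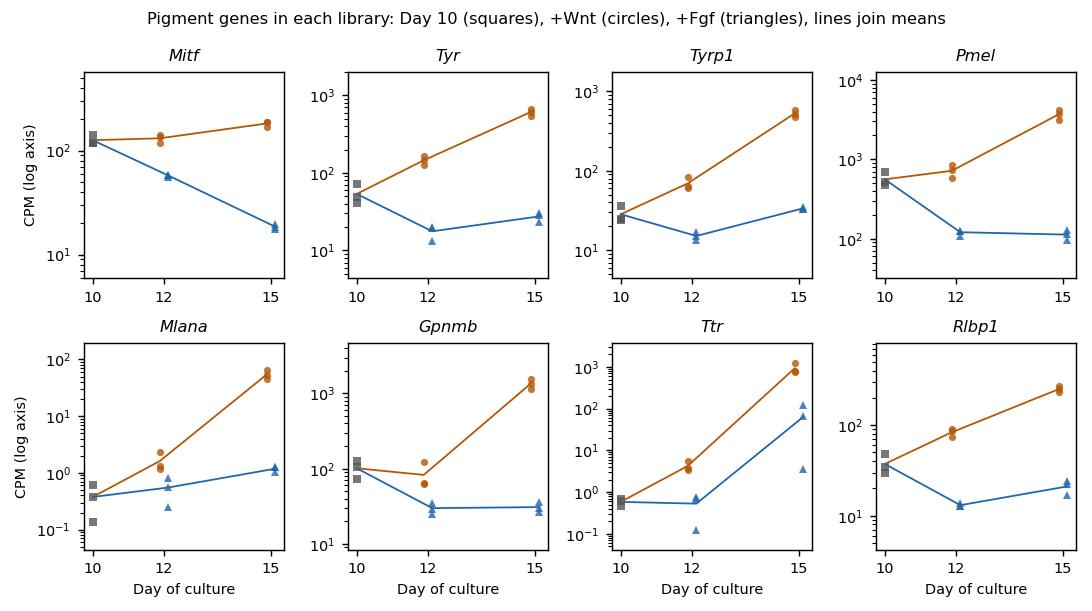
CPM on a log axis against the day of culture for Mitf, Tyr, Tyrp1, Pmel, Mlana, Gpnmb, Ttr and Rlbp1, with 1 point for each of 3 libraries per group (Day 10 squares, +Wnt circles, +Fgf triangles) and lines through the group means. Tyr, Tyrp1, Pmel, Mlana and Gpnmb climb in +Wnt tissue from Day 12 to Day 15, as Tyr does from 145 to 608 CPM, while Mitf moves far less, from 131 to 183 CPM.

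The transcription factors of the pigment lineage moved less than the melanin genes. Of 10 members, 2 rose and 4 fell, with a median log2 change of -0.088 and no increase of at least 1. Mitf, the regulator of melanin genes and of RPE fate, was 141, 134 and 119 CPM at Day 12 and 191, 169 and 188 CPM at Day 15 (log2 0.47 ± 0.075, adjusted p = 2.82e-05). It was 1.39-fold higher, against 4.18-fold for Tyr. In +Fgf tissue Mitf changed by -1.62, and the difference between the changes was 2.10 ± 0.11 (adjusted p = 3.88e-10). Otx2, which acts with Mitf, was 248, 246 and 250.0 CPM and then 242, 213 and 224 CPM, a log2 change of -0.13 ± 0.09 that did not pass (adjusted p = 0.203), and its sign was positive under quantile normalization. The other gene that rose was Sox9, a partner of Mitf and Otx2 at RPE genes, from 37.7 ± 3.29 to 56.6 ± 3.34 CPM. Sox9 rose in +Fgf tissue too, by 0.75 to a mean of 80.2 CPM. The difference between its changes, -0.16 ± 0.11, did not pass (adjusted p = 0.233). The decreases were Nr2f1, an orphan nuclear receptor of the optic vesicle (log2 -1.57 ± 0.089, adjusted p = 2.32e-10), Tfec, an Mitf relative (-1.36 ± 0.19, adjusted p = 6.49e-06), Otx1 (-0.56 ± 0.10, adjusted p = 0.000136) and Pax6 (-0.42 ± 0.054, adjusted p = 3.42e-06). Pax6 remained at 245 ± 7.03 CPM at Day 15. Exons of A830082K12Rik overlap Nr2f1, and those of Otx2os1 overlap Otx2, on the opposite strand.

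Genes of the visual cycle and of mature RPE rose in part, while the isomerase that defines the cycle was not detected. Of 32 members 28 were tested, 18 rose and 3 fell, with a median log2 change of 0.95. Under quantile normalization 6 fell. Rpe65, the retinoid isomerase that defines the mature visual cycle, and Rgr, an RPE opsin, had no read in any of the 6 +Wnt libraries, where 3 reads would be worth 0.186 to 0.224 CPM. Lrat, which esterifies retinol, had at most 12 reads, and Best1, a chloride channel of mature RPE, at most 7 reads in a +Wnt library. Rlbp1, which carries retinaldehyde within the RPE, was 90.5, 85.7 and 74.9 CPM at Day 12 and 269, 230.4 and 253 CPM at Day 15 (log2 1.58 ± 0.14, adjusted p = 5.03e-08). Rdh5, the retinol dehydrogenase of the RPE, rose from 2.49 ± 0.0335 to 16.3 ± 2.35 CPM, and shares exons with Bloc1s1 on the same strand. The visual cycle of Day 15 +Wnt tissue thus held transcripts of a carrier and a dehydrogenase, with those of the isomerase below detection at this depth. The 3 members that fell were Rdh10 (log2 -0.79 ± 0.063, adjusted p = 1.15e-08), Rrh (-1.19 ± 0.35, adjusted p = 0.00672) and Cldn19 (-0.47 ± 0.20, adjusted p = 0.0437), of which Rrh did not pass with a pseudocount of 1 and Cldn19 in neither count test (edgeR or DESeq2 on the reads).

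The largest increases of this list were in secreted proteins. Ttr, the thyroxine and retinol-binding protein carrier made by RPE and choroid plexus, was 3.84, 5.57 and 3.38 CPM at Day 12 and 1231, 807 and 749 CPM at Day 15, 218-fold higher (log2 7.66 ± 0.80, adjusted p = 3.07e-07). This was the largest increase of all genes named under the selection rule. In +Fgf tissue Ttr was 0.127, 0.765 and 0.703 CPM at Day 12 and 3.61, 121 and 66.6 CPM at Day 15, and the difference between the changes was 2.30 ± 1.14 (adjusted p = 0.106), which did not pass. With a pseudocount of 1 it was 2.97 and passed, and with DESeq2 it was 0.89 and did not. Ptgds, a prostaglandin synthase and retinoid carrier made by the RPE, was 1.01, 1.11 and 1.19 CPM and then 158, 129 and 177 CPM (log2 6.78 ± 0.17, adjusted p = 1.03e-13). It also rose in +Fgf tissue, by 4.22, and the difference of 2.56 ± 0.24 passed (adjusted p = 2.4e-07). Timp3, the protease inhibitor of Bruch's membrane, rose from 12.4 ± 2.02 to 97.4 ± 1.08 CPM with a difference from +Fgf of 2.95 ± 0.20 (adjusted p = 1.13e-08). Exons of Syn3 overlap Timp3 on the opposite strand. Stra6, the membrane receptor for retinol, rose from 82.3 ± 6.42 to 128 ± 9.93 CPM and differed from +Fgf by 1.97 ± 0.13 (adjusted p = 6.49e-09).

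The genes of the eye field, the early territory from which retina and RPE both form, fell as a group. Of 20 members 19 were tested, 14 fell and 2 rose, with a median log2 change of -0.75, and the list's median in +Fgf tissue was -0.074. Six6 was 29.4, 31.8 and 26.6 CPM at Day 12 and 1.49, 2.16 and 1.12 CPM at Day 15, 18.4-fold lower (log2 -4.00 ± 0.13, adjusted p = 1.06e-12). Rax, the gene whose locus carries the GFP reporter, was 43.0, 51.1 and 39.9 CPM and then 5.83, 5.15 and 5.26 CPM, 8.25-fold lower (log2 -2.97 ± 0.084, adjusted p = 2.24e-13). No Day 15 library of either gene reached a Day 12 value. Both had been higher still before treatment, at 292 CPM for Six6 and 164 CPM for Rax at Day 10. Vax2, a factor of the ventral retina, fell from 24.5 ± 3.09 to 3.16 ± 0.425 CPM, and Hmx1 from 25.3 ± 2.98 to 3.33 ± 0.487 CPM. Exons of Raxos1, 4930447C04Rik and 4930442P19Rik overlap Rax, Six6 and Hmx1 respectively on the opposite strand. Lhx2, needed in both retina and RPE, changed little, from 275, 274 and 270.4 CPM to 218, 215 and 257 CPM (log2 -0.25 ± 0.069, adjusted p = 0.00411), and did not pass under quantile normalization. The members that rose included Fgf15 (1.05 ± 0.19, adjusted p = 9.16e-05). The changes of Rax and Six6 differed from those in +Fgf tissue, by -3.46 ± 0.12 (adjusted p = 1.03e-11) and -3.51 ± 0.19 (adjusted p = 9.47e-10).

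**Figure D2:**
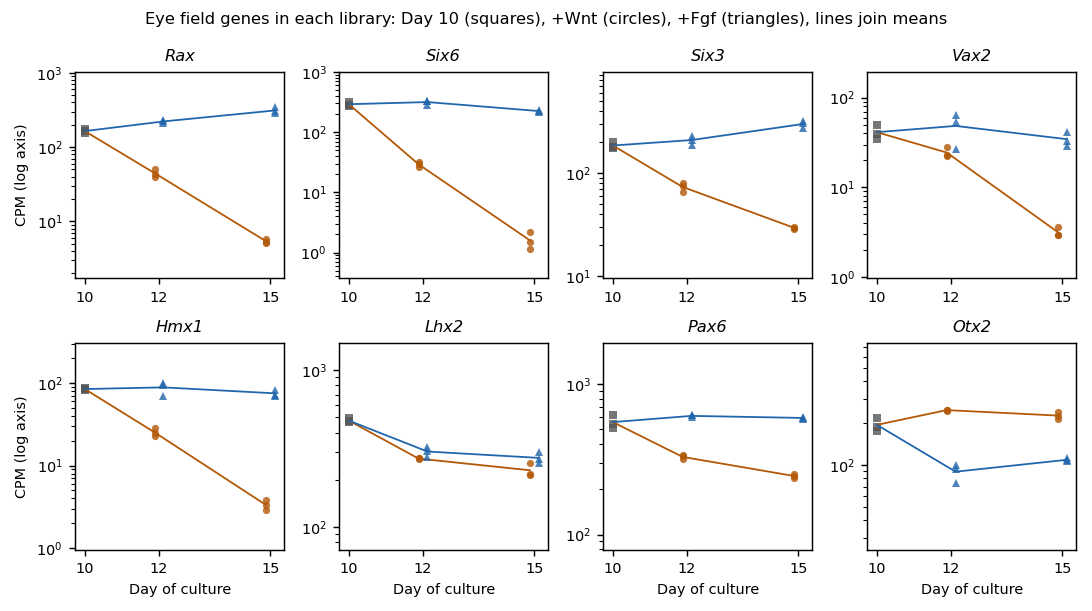
CPM on a log axis against the day of culture for Rax, Six6, Six3, Vax2, Hmx1, Lhx2, Pax6 and Otx2, with 1 point for each of 3 libraries per group (Day 10 squares, +Wnt circles, +Fgf triangles) and lines through the group means. Rax, Six6, Vax2 and Hmx1 drop in +Wnt tissue, as Six6 does from 29.3 to 1.59 CPM, and Six3 from 73.5 to 29.5 CPM, while Lhx2, Pax6 and Otx2 stay above 200 CPM.

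Markers of retinal ganglion cells and early neurons rose in +Wnt tissue, and for most of them by less than in +Fgf tissue. Of 18 members, 14 rose and 2 fell, with a median log2 change of 0.82 against 2.90 in +Fgf, and 16 members had a change lower than that in +Fgf by the test of the difference (all but Pou4f2 and Rbpms). Dcx, a microtubule protein of young neurons, was 94.8, 108 and 149.8 CPM at Day 12 and 280.1, 404 and 312 CPM at Day 15 (log2 1.50 ± 0.24, adjusted p = 3.93e-05). Stmn2 rose from 76.9 ± 18.7 to 238 ± 26.0 CPM and Snap25, a protein of synaptic vesicle fusion, from 5.82 ± 2.13 to 27.8 ± 4.58 CPM. Pou4f2, which marks ganglion cells, rose from 0.132 to 1.53 CPM and was 82.1 CPM in Day 15 +Fgf tissue. Its Day 12 mean lies below the 0.186 to 0.224 CPM that 3 reads are worth in a +Wnt library. The size of its change is therefore uncertain, with log2 1.11 to 3.55 over the alternative settings. The 2 decreases were Atoh7, the factor that precedes ganglion cell birth, from 0.463 to 0.0674 CPM, and Isl1, from 1.53 ± 0.623 to 0.644 ± 0.389 CPM, which did not pass with edgeR. The Day 15 mean of Atoh7 is below the same floor, and its log2 change was -2.71 to -0.46 over the settings. The summed level of the list was 800.1 to 1114 CPM at Day 12 and 1802 to 2213 CPM at Day 15 in +Wnt tissue. In +Fgf tissue it was lower at Day 12, 440.2 to 476 CPM, and higher at Day 15, 2814 to 3159 CPM. Dcx was lower in +Fgf tissue on both days, with means of 25.3 and 168 CPM against 118 and 332 CPM. Under quantile normalization 4 members of the list fell.

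Photoreceptor precursor genes did not move together. Of 12 members 8 were tested, 2 rose and 3 fell. Crx, the factor that sets photoreceptor identity, was 2.26, 3.13 and 3.24 CPM at Day 12 and 2.54, 2.31 and 2.74 CPM at Day 15 (log2 -0.16 ± 0.24, adjusted p = 0.589), while in +Fgf tissue it went from 1.83 to 103 CPM, a difference between the changes of -5.85 ± 0.34 (adjusted p = 2.06e-09). Under quantile normalization Crx fell in +Wnt tissue (log2 -0.85, adjusted p = 0.00278). Rxrg, a retinoid receptor present in cone precursors, was 48.7, 61.0 and 46.2 CPM and then 3.97, 2.91 and 3.30 CPM, 15.3-fold lower (log2 -3.82 ± 0.16, adjusted p = 1.09e-11). Its mean was already 31.8 CPM at Day 10, and in +Fgf tissue only 3.84 CPM at Day 12 and 6.25 CPM at Day 15. Rxrg thus did not follow Crx across the groups, and which cells held it was not tested. The other decreases were Thrb (log2 -0.36 ± 0.11, adjusted p = 0.00584) and Neurod4 (-0.74 ± 0.25, adjusted p = 0.0165). The 2 increases were Prdm1 (1.81 ± 0.24, adjusted p = 4.16e-06) and Gnat2 (1.48 ± 0.32, adjusted p = 0.000564), which did not pass under quantile normalization.

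Every tested gene of the cell cycle machinery fell. All 32 genes of DNA replication fell, with a median log2 change of -1.18, and 24 of them by at least 1. All 24 genes of mitosis fell, with a median of -1.23, and 19 of them by at least 1. The totals of 32 and 24 decreases were found under every alternative setting that was run, and the counts of at least 1 were not recomputed. The percentage of all genes that fell was 35.5%. Mcm5, a subunit of the replicative helicase, was 234, 234 and 227 CPM at Day 12 and 74.6, 72.6 and 84.4 CPM at Day 15, 3.00-fold lower (log2 -1.58 ± 0.051, adjusted p = 6.82e-13). Ccnb1, the cyclin of entry into mitosis, was 291, 290.2 and 289 CPM and then 108, 114 and 113 CPM (log2 -1.37 ± 0.041, adjusted p = 3.96e-13). Mki67, which marks cycling cells, was 321, 285 and 310.0 CPM and then 145, 157 and 146 CPM (log2 -1.03 ± 0.077, adjusted p = 5.22e-09). The genes were lower in every Day 15 library but stayed well above detection. In +Fgf tissue the medians were -0.47 for replication and -0.21 for mitosis, and in the test of the difference 31 of 32 and 24 of 24 members were negative, with Orc1 as the exception. For Mki67 the difference was -1.23 ± 0.11 (adjusted p = 1.6e-07), for Mcm5 -0.93 ± 0.072 (adjusted p = 3.46e-08) and for Ccnb1 -1.07 ± 0.058 (adjusted p = 9.47e-10).

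Regulators of the exit from the cycle moved less than the machinery. Of 13 CDK inhibitors, D-type cyclins and pocket proteins, 5 rose and 2 fell, with no change of at least 1. Ccnd1, the D-type cyclin of the early retina, was 102, 70.2 and 74.6 CPM at Day 12 and 33.4, 40.3 and 53.8 CPM at Day 15 (log2 -0.95 ± 0.14, adjusted p = 1.04e-05). The other decrease was Rbl1 (p107), from 63.3 ± 1.36 to 33.4 ± 2.32 CPM, and its relative Rbl2 (p130), the pocket protein of resting cells, rose from 16.8 ± 0.161 to 32.2 ± 1.55 CPM. Cdkn1a (log2 0.24 ± 0.067, adjusted p = 0.00405) and Cdkn1b (0.17 ± 0.044, adjusted p = 0.00317) rose by small amounts, Rb1 and Cdkn2c by 0.56 and 0.48, and Cdkn1c did not pass (-0.23 ± 0.17, adjusted p = 0.232). Cdkn2c did not pass under quantile normalization. Exons of Lpar6 and Rcbtb2 overlap Rb1, those of Aktip overlap Rbl2 and those of LTO1 overlap Ccnd1 on the opposite strand.

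Ribosome biogenesis genes fell alongside the cell cycle genes. Of 24 genes of Myc and ribosome biogenesis, 22 fell and none rose, with a median of -0.60, and no decrease reached 1. The 2 that did not pass were Myc (log2 -0.19 ± 0.15, adjusted p = 0.256) and Mycn (0.19 ± 0.092, adjusted p = 0.0749). Under quantile normalization Myc fell (-0.71, adjusted p = 0.000402), and Mycn rose there, under median-of-ratios scaling and in both count tests, with changes up to 0.25. Ddx21, a helicase of ribosomal RNA processing, was 185, 179 and 173 CPM at Day 12 and 93.3, 106 and 106 CPM at Day 15 (log2 -0.81 ± 0.063, adjusted p = 7.8e-09). The median in +Fgf tissue was -0.64, and the difference between the changes did not pass for 16 of 24 members.

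A set of genes known to time early development turned over. Of 16 members, 11 fell and 5 rose, with a median of -1.36. Lin28a and Lin28b, which block maturation of let-7 microRNAs in early cells, both fell. Lin28a was 66.2, 59.4 and 60.0 CPM at Day 12 and 0.931, 7.83 and 5.19 CPM at Day 15 (log2 -4.03 ± 0.50, adjusted p = 2.07e-06). Lin28b was 148, 138 and 132 CPM and then 23.6, 24.5 and 23.2 CPM (log2 -2.53 ± 0.087, adjusted p = 1.06e-12). Hmga2, a chromatin protein and let-7 target, was 189, 204 and 168 CPM and then 18.5, 23.0 and 32.9 CPM, 7.53-fold lower (log2 -2.93 ± 0.16, adjusted p = 1.84e-10). In the other direction Nfix, Nfia and Nfib, factors of later progenitors and glia, rose from 2.92 ± 0.649 to 49.8 ± 0.517, from 19.6 ± 3.95 to 99.6 ± 9.26 and from 56.4 ± 6.52 to 227 ± 15.4 CPM. The other increases were Dnmt3a (log2 0.71) and Zbtb20 (1.70). In +Fgf tissue Lin28a changed by -2.69, Lin28b by -2.08 and Hmga2 by -3.65. The opposite-strand genes Gm13061, 1700006J14Rik and Lyl1 overlap Lin28a, Hmga2 and Nfix.

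Genes of the basement membrane and of Bruch's membrane, the layered matrix under the RPE, rose. Of 29 members, 23 rose and 2 fell, with a median log2 change of 0.94 against -0.34 in +Fgf tissue, and the difference was positive for 23 members. These are differences in change and not in level. The summed level of the list was 1864 to 2186 CPM at Day 12 and 2809 to 3116 CPM at Day 15 in +Wnt tissue. In +Fgf tissue it was 3890 to 5025 CPM and then 2991 to 3491 CPM. Bgn, the small proteoglycan biglycan, was 0.189, 0.348 and 0.596 CPM at Day 12 and 13.5, 9.92 and 18.7 CPM at Day 15 (log2 4.40 ± 0.29, adjusted p = 1.39e-09). Fbln5, an organiser of elastic fibres, rose from 1.66 ± 0.0837 to 19.4 ± 3.32 CPM. Col8a2, a short-chain collagen of Descemet's and Bruch's membranes, rose from 2.28 ± 0.742 to 19.02 ± 3.18 CPM. Each of these was low at Day 12 and well above detection in all Day 15 libraries. The 2 decreases were Col18a1, the precursor of endostatin (log2 -0.99 ± 0.057, adjusted p = 2.64e-10), and Fbn2, the fibrillin of early development (-0.60 ± 0.13, adjusted p = 0.000649). The difference from +Fgf was 5.63 ± 0.41 for Bgn (adjusted p = 2.23e-08) and 5.19 ± 0.34 for Fbln2 (adjusted p = 7.89e-09), where +Fgf tissue moved the other way (-1.23 and -2.30). Their means in Day 12 +Fgf tissue were 10.1 CPM for Bgn and 30.6 CPM for Fbln2.

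Markers of mesenchyme, endothelium and blood cells moved with these matrix genes. Of 18 such markers 13 were tested, 11 rose and none fell, with a median of 2.52, and their summed level was 118 to 159 CPM at Day 12 and 599.6 to 710.2 CPM at Day 15. Col1a1, a chain of fibrillar collagen I, was 2.77, 2.71 and 3.71 CPM and then 70.5, 46.5 and 67.6 CPM (log2 4.19 ± 0.24, adjusted p = 2.15e-10). Dcn, decorin, was 7.17, 6.19 and 8.08 CPM and then 113, 97.5 and 122 CPM (log2 3.90 ± 0.41, adjusted p = 3.24e-07). Lum, lumican, was 3.59, 5.36 and 8.87 CPM and then 52.4, 42.2 and 60.5 CPM (log2 3.13 ± 0.78, adjusted p = 0.00184). The days did not overlap for any of the 3. Pdgfra and Pdgfrb, receptors of mesenchyme, rose by 2.08 and 2.05. Of the markers of blood and vessel cells, 5 had too few reads to test. In the +Wnt libraries Ptprc (CD45) and Hbb-b1 had no read, Aif1 and Tie1 at most 1 and Cdh5 at most 2. The other blood and vessel markers of the list were tested and count among the 13, and of these only Csf1r is named here. Csf1r, a macrophage receptor whose exons overlap Hmgxb3, rose from 1.04 ± 0.628 to 20.1 ± 1.46 CPM. The part of other cells in the matrix result was not tested.

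Glycolysis genes and genes known to respond to low oxygen rose in nearly every case. Of 25 members, 24 rose and 1 fell, with a median log2 change of 1.34, and 16 of the increases were of at least 1. The 1 decrease was Ldhb (log2 -0.19 ± 0.055, adjusted p = 0.00475), which did not pass under quantile normalization. Aldoc, an aldolase, was 9.44, 5.43 and 8.08 CPM at Day 12 and 153, 147 and 157 CPM at Day 15 (log2 4.30 ± 0.31, adjusted p = 3.8e-09). Pfkp, a phosphofructokinase, was 15.5, 7.31 and 9.80 CPM and then 120.0, 120.4 and 129.6 CPM (log2 3.54 ± 0.18, adjusted p = 8.51e-11). Egln3, an oxygen-sensing hydroxylase, rose from 15.5 ± 4.71 to 97.3 ± 6.75 CPM and Ndrg1, a stress gene, from 3.90 ± 3.47 to 38.2 ± 1.94 CPM. The second Day 12 library held the lowest level of the 3 for Aldoc and Pfkp. The +Fgf tissue moved in the same direction, with a median of 1.18, and the difference between the changes did not pass for 17 of 25 members. The listed genes of the mitochondrial respiratory chain showed no such shift. Of 78 members, 12 rose and 29 fell, none by 1 or more, with a median of -0.075, and under quantile normalization 21 rose and 10 fell. That list was drawn by a pattern of gene symbols and does not hold Ndufa4l2 and Cox4i2, which rose by 4.77 and 4.69.

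**Figure D3:**
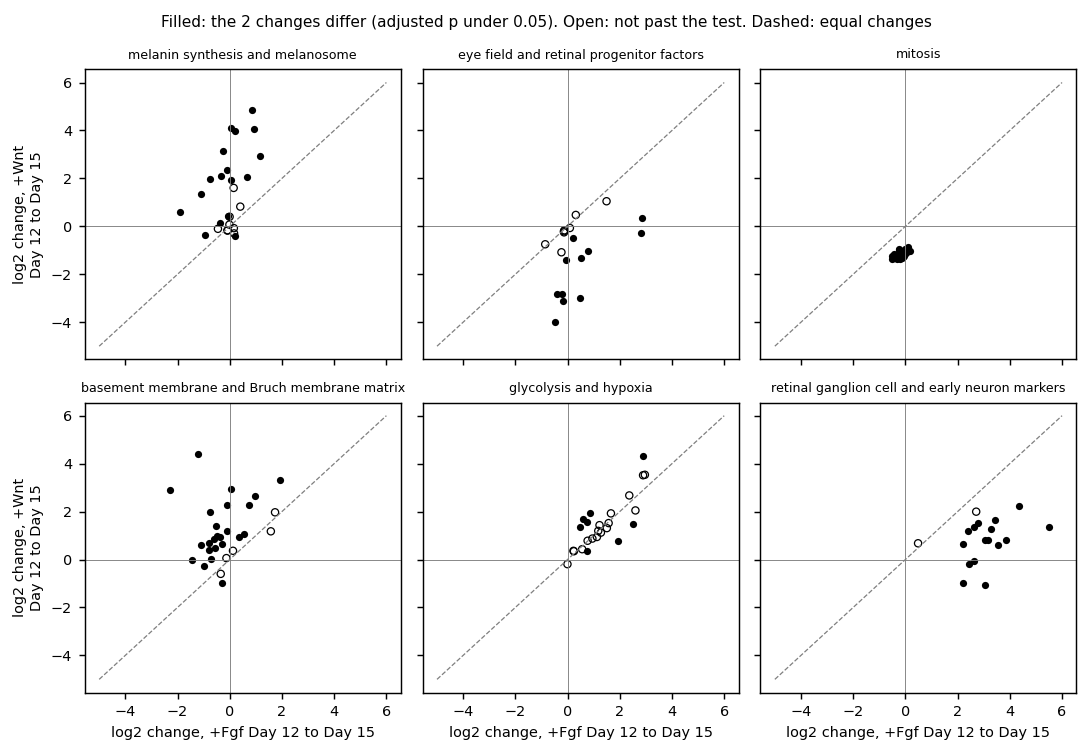
Log2 change from Day 12 to Day 15 in +Wnt tissue (vertical axis) against that in +Fgf tissue (horizontal axis) for the tested members of 6 gene lists, 1 point for each gene. Filled points are genes whose changes differ between the treatments, and the dashed line marks equal changes. Most melanin and matrix genes lie above the line, with 16 and 23 filled points there, mitosis genes lie below it with all 24 filled, most neuron markers lie below it, and most glycolysis genes lie along it.

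Transport genes of the epithelium rose. Of 32 members 29 were tested, 21 rose and 3 fell, with a median of 0.71. Aqp1, a water channel, was 2.08, 1.18 and 1.13 CPM at Day 12 and 29.2, 26.5 and 35.4 CPM at Day 15 (log2 4.15 ± 0.32, adjusted p = 6.82e-09). Car12, a membrane carbonic anhydrase, was 3.15, 1.60 and 3.44 CPM and then 58.7, 60.8 and 65.9 CPM (log2 4.42 ± 0.34, adjusted p = 6.44e-09). Slc16a3, a lactate exporter, was 91.8, 27.7 and 66.5 CPM and then 263, 243 and 291 CPM (log2 2.25 ± 0.35, adjusted p = 2.47e-05), with its lowest value again in the second Day 12 library. These rose in +Fgf tissue too, by 3.63, 3.37 and 2.28, and for Aqp1 the difference between the changes, 0.52 ± 0.45, did not pass (adjusted p = 0.358). The 3 decreases were Slc6a13 (log2 -0.84), Clcn2 (-0.28) and Slc12a2 (-0.22), the last of which did not pass under quantile normalization.

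Junction genes rose and fell in equal number, at close to the shares of all tested genes. Of 26 members 25 were tested, 8 rose and 8 fell. Thus 64% passed, against 68% of all tested genes, of which 32.5% rose and 35.5% fell. Under quantile normalization only 3 members rose. Cdh3, P-cadherin, which the RPE expresses, was 9.25, 8.7 and 7.08 CPM at Day 12 and 37.97, 29.8 and 32.8 CPM at Day 15 (log2 1.97 ± 0.19, adjusted p = 1.01e-07). Cdh2, N-cadherin of neural epithelium, was 616, 618 and 619 CPM and then 399.6, 461 and 403 CPM (log2 -0.56 ± 0.054, adjusted p = 1.23e-07). The difference from +Fgf was 3.39 ± 0.27 for Cdh3 (adjusted p = 4.19e-08) and -0.85 ± 0.076 for Cdh2 (adjusted p = 1.71e-07). Crb2, an apical polarity protein, fell from 99.7 ± 5.25 to 42.7 ± 3.19 CPM, and Cgn, the tight junction protein cingulin, from 85.01 ± 6.07 to 36.9 ± 1.42 CPM.

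More lysosomal genes rose than fell. The RPE digests shed photoreceptor tips in lysosomes and shares much of this machinery with the melanosome. Of 44 members of the lysosome and its proton pump 41 were tested, 22 rose and 6 fell, with a median of 0.18. The decreases numbered 2 with edgeR, and 3 under quantile normalization, under median-of-ratios scaling or without the third Day 15 library. Ctsb, cathepsin B, was 278, 282 and 275 CPM at Day 12 and 639, 525 and 569 CPM at Day 15 (log2 1.05 ± 0.068, adjusted p = 1.02e-09), with Fdft1 overlapping it on the other strand. Gaa, which breaks down glycogen, rose from 100.1 ± 12.5 to 239 ± 24.8 CPM and Lipa, the acid lipase, from 67.3 ± 1.32 to 154 ± 14.0 CPM. Ctsd, cathepsin D, fell from 369.7 ± 12.4 to 239.8 ± 17.3 CPM, and Lamp1, a membrane protein of the lysosome, from 544 ± 13.2 to 408 ± 24.7 CPM. Exons of Gm49369 lie on the same strand as those of Ctsd.

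Among genes of metal handling 16 of 26 tested rose and 4 fell. Mt1, a metallothionein that binds zinc and copper, was 28.0, 25.5 and 20.1 CPM and then 122, 109 and 130.1 CPM (log2 2.29 ± 0.15, adjusted p = 1.37e-09). Slc11a1, a divalent metal transporter of phagosomes, rose from 16.6 ± 3.38 to 45.7 ± 9.92 CPM. The 4 decreases were Cp, the ferroxidase ceruloplasmin (log2 -1.52), Slc39a10 (-0.47), Slc11a2 (-0.32) and Slc30a4 (-0.20), of which Slc30a4 did not pass in the count tests. Genes of sterol and fatty acid synthesis changed by less. Of 27, 16 rose and 3 fell, none by 1 or more, with a median of 0.28, and Mvd, a mevalonate pathway enzyme, rose from 39.8 ± 1.67 to 64.1 ± 2.89 CPM. The decreases included Mvk and Idi1, each with a log2 change of -0.22 that did not pass in the count tests.

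Feedback targets of Wnt/β-catenin signalling, which the pathway itself induces, were divided. Of 16 tested feedback targets, 5 rose and 3 fell, with a median of -0.086. Thus 50% passed, against 68% of all tested genes. Under quantile normalization 3 rose, and 5 fell when only the +Wnt libraries of both days were fitted. Axin2, the general target of the pathway, was 174, 180.3 and 199 CPM at Day 12 and 183, 182 and 164 CPM at Day 15 (log2 -0.063 ± 0.23, adjusted p = 0.821), and its sign was positive under quantile normalization. Lef1, a factor of the pathway and its target, was 47.6, 47.1 and 48.9 CPM and then 41.9, 43.8 and 43.4 CPM (log2 -0.15 ± 0.20, adjusted p = 0.51). A p that misses the threshold does not show an equal level. Dkk1, the secreted antagonist, was 31.2, 28.5 and 34.1 CPM and then 2.48, 2.68 and 3.58 CPM, 10.7-fold lower (log2 -3.31 ± 0.18, adjusted p = 1.51e-10). The other 2 that fell were Tcf7 (-0.48 ± 0.12, adjusted p = 0.00177) and Nkd1 (-0.18 ± 0.068, adjusted p = 0.0262). Nkd2 rose from 3.37 ± 0.647 to 13.1 ± 1.31 CPM, and Rnf43 and Lgr5, a ligase that removes Wnt receptors and a receptor for R-spondin, by 1.56 and 0.71. Irx3 rose by 0.66, and Apcdd1 by 0.54 at the edge of the threshold (adjusted p = 0.04997), and Apcdd1 did not pass with DESeq2. Lgr5 and Irx3 did not pass under quantile normalization, nor Nkd1 in the count tests.

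Feedback targets of Fgf signalling rose in tissue that received no bFgf. Of 14 members, 10 rose and 3 fell, with a median of 0.52 against -0.43 in +Fgf tissue. The summed level of the list was 426 to 465 CPM at Day 10, before treatment. In +Wnt tissue it was 305 to 353 CPM at Day 12 and 394 to 441 CPM at Day 15, against 748 to 762 CPM in Day 15 +Fgf tissue. Day 10 means of Spry2 and Egr1, 26.0 and 19.8 CPM, were above their Day 15 +Wnt values. That of Etv4, 7.96 CPM, was below them. Spry2, an inhibitor of receptor tyrosine kinase signalling, was 9.18, 9.67 and 9.003 CPM at Day 12 and 20.4, 21.6 and 21.3 CPM at Day 15 (log2 1.16 ± 0.094, adjusted p = 1.43e-08). Etv4, a transcription factor induced by Fgf, was 5.09, 7.10 and 9.4003 CPM and then 20.8, 21.0 and 18.8 CPM (log2 1.49 ± 0.15, adjusted p = 1.84e-07). Egr1, an immediate early gene, was 5.03, 3.27 and 3.18 CPM and then 16.9, 14.0 and 14.2 CPM (log2 1.92 ± 0.15, adjusted p = 1.21e-08). The changes of these genes differed from those in +Fgf tissue, by 1.75 ± 0.13 (adjusted p = 3.1e-08), 1.94 ± 0.21 (adjusted p = 1.47e-06) and 3.56 ± 0.22 (adjusted p = 3.34e-09). The 3 decreases were Dusp6, which dephosphorylates Erk (log2 -0.55 ± 0.11, adjusted p = 0.000432), Il17rd (-0.48 ± 0.095, adjusted p = 0.000281) and Spred1 (-0.18 ± 0.068, adjusted p = 0.0298), which did not pass in the count tests.

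In the BMP and TGF-β pathways 15 of 32 genes rose and 6 fell. Among ligands, Inhbb, the activin βB chain, was 3.40, 4.80 and 3.64 CPM at Day 12 and 27.8, 27.1 and 31.0 CPM at Day 15 (log2 2.78 ± 0.20, adjusted p = 2.54e-09), and Gdf11 fell from 55.2 ± 2.44 to 28.7 ± 0.993 CPM. Among secreted antagonists, Grem1 rose from 1.72 ± 0.525 to 10.0 ± 0.509 CPM and Fst, which binds activin, from 4.19 ± 1.13 to 12.6 ± 1.24 CPM. Among receptors, Tgfbr2 rose from 7.14 ± 1.34 to 17.6 ± 2.44 CPM, whereas Tgfbr1 fell from 274 ± 1.79 to 154 ± 10.6 CPM. The target Id3 fell from 341 ± 24.8 to 195 ± 9.67 CPM.

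Of 19 genes of retinoic acid metabolism and its receptors 7 rose and 6 fell. Thus 68.4% passed, close to the 68% of all tested genes. The synthesising enzyme Aldh1a3, which is expressed in the optic vesicle, was 51.8, 53.4 and 41.6 CPM and then 9.93, 8.13 and 10.7 CPM (log2 -2.32 ± 0.21, adjusted p = 5.59e-08). Aldh1a1, the enzyme of the dorsal retina, fell from 17.4 ± 10.6 to 5.26 ± 0.961 CPM, with uneven Day 12 libraries, and did not pass with edgeR. Crabp2, which carries retinoic acid to its receptors, fell from 339 ± 23.1 to 96.5 ± 2.17 CPM. Cyp26b1, which degrades retinoic acid, was 0.629, 0.487 and 1.06 CPM and then 19.4, 15.4 and 23.5 CPM (log2 4.28 ± 0.66, adjusted p = 2.33e-05).

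The Notch pathway and imprinted growth genes were divided too. Of 16 Notch genes 6 rose and 7 fell, and only 4 fell with edgeR or without the first Day 12 or the second Day 15 library. The share that passed was 81.25%, against 68% of all tested genes. Hes1, the repressor that keeps progenitors undifferentiated, fell from 54.5 ± 4.50 to 25.4 ± 3.24 CPM. Jag1, a ligand, was 22.8, 21.9 and 23.0 CPM at Day 12 and 28.7, 31.2 and 27.4 CPM at Day 15 (log2 0.36 ± 0.094, adjusted p = 0.00279), while in +Fgf tissue it changed by -3.32 (difference 3.68 ± 0.13, adjusted p = 1.65e-11). Of 15 imprinted genes 6 rose and 5 fell, so 73.3% passed, near the 68% of all tested genes. Dlk1, which restrains differentiation in several tissues, rose from 20.4 ± 6.51 to 55.4 ± 7.99 CPM. The 5 decreases were H19, Mest, Peg3, Plagl1 and Igf2, with log2 changes of -0.98, -0.88, -0.87, -0.44 and -0.33, the last of which did not pass in the count tests.

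Markers of other tissues that the explants could hold were examined for the same libraries. The choroid plexus list showed 10 increases and 2 decreases in 15 tested of 16 members (median 2.14), and its summed level was 407 to 445 CPM at Day 12 and 1455 to 2032 CPM at Day 15. Ttr, which the visual cycle list also holds, made up 1231, 807 and 749 CPM of that sum in the 3 Day 15 libraries. Of the other members, Aqp1 is described above, Sostdc1 rose from 5.70 ± 0.409 to 32.3 ± 5.07 CPM, Slc4a5 from 78.1 ± 15.1 to 343 ± 32.7 CPM, Steap1 and Sulf1 fell, with log2 changes of -1.45 and -0.41 (the second did not pass with DESeq2), and Kl had at most 1 read in a +Wnt library at Day 12 and 8 at Day 15. The part of choroid plexus cells in the rise of Ttr and the transport genes was not tested. In the neural crest and melanocyte list 4 of 9 tested rose and none fell, with a summed level of 88.6 to 92.3 CPM at Day 12 and 142 to 166 CPM at Day 15. The increases were Ednrb (1.54), Kit (1.32), Twist1 (0.85) and Tfap2a (0.38), which did not pass with DESeq2 and was negative under quantile normalization. The defining melanocyte marker Sox10 had at most 3 reads in any +Wnt library. Under quantile normalization 3 members of this list fell. In the lens list 8 of 16 members were tested, 6 of these rose and none fell, led by Cryba2 (0.629, 0.974 and 0.794 CPM, then 38.2, 17.3 and 23.4 CPM), Cryab and Crybb1, with a summed level of 17.7 to 20.5 CPM and then 97.0 to 147 CPM. The other 8 had too few reads to test. Among them Foxe3 and Crybb2 had no read in a +Wnt library, Cryaa at most 1 and Cryba4 at most 3. Crygs had at most 3 reads at Day 12 and 32 at Day 15. The ciliary margin list had 3 increases and 3 decreases in 12, and 5 of each when only the +Wnt libraries of both days were fitted. Col9a1 fell from 125 ± 5.35 to 23.6 ± 0.760 CPM, Wfdc1 and Zic2 changed by -1.39 and -0.20 (Zic2 did not pass with edgeR), and the increases were Mia (2.64), Cdo1 (0.62) and Gja1 (0.51). Of 7 tested pluripotency markers none passed, with a summed level of 23.8 to 64.7 CPM and then 12.7 to 62.8 CPM. Of 12 tested brain markers 3 rose and none fell, among them Lhx5 (2.13 ± 0.39, adjusted p = 0.000121) and Barhl2 (1.19 ± 0.23, adjusted p = 0.000178), and the summed level of the list was 256 to 314 CPM and then 468 to 544 CPM. With edgeR 5 brain markers rose, and under quantile normalization 2 fell.

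**Figure D4:**
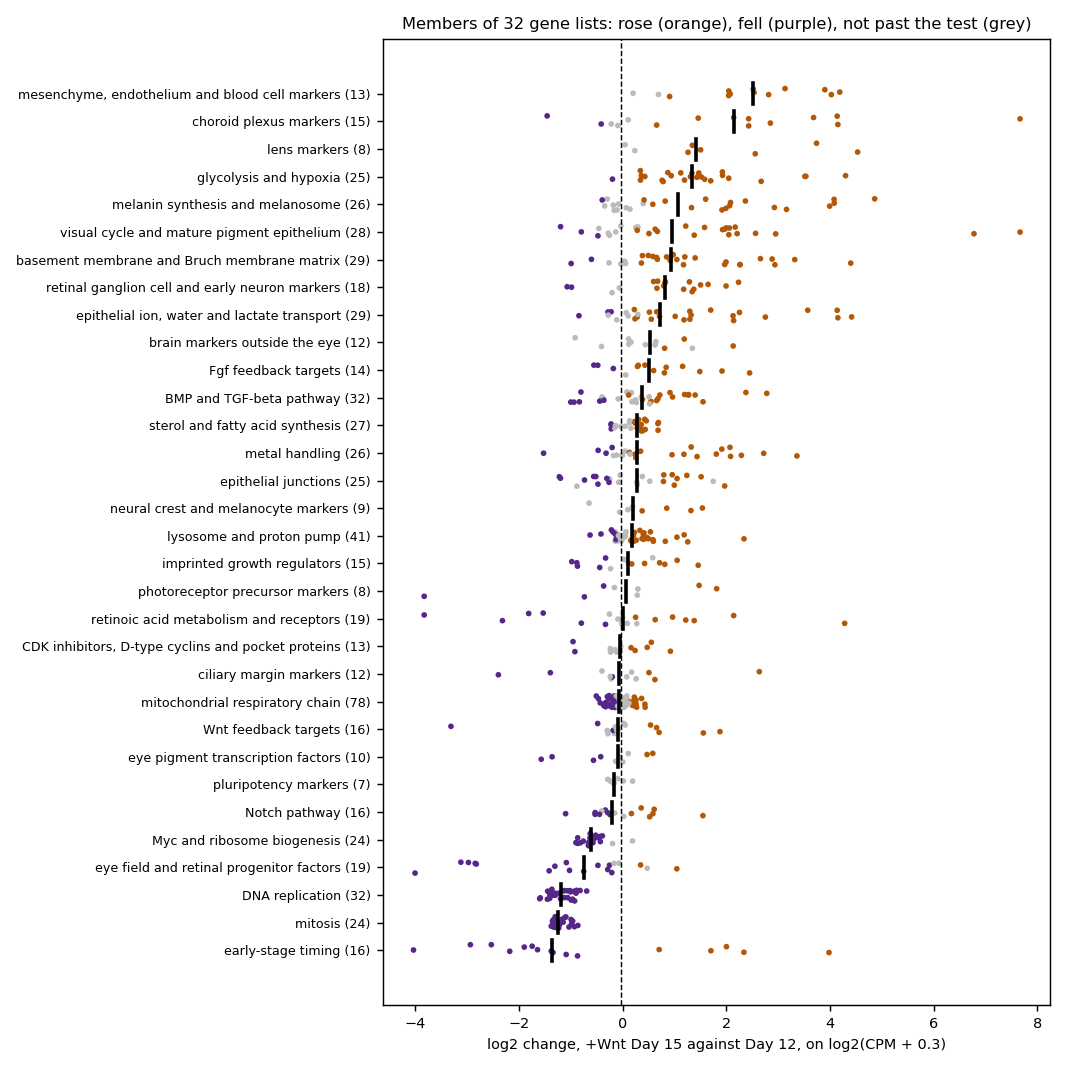
Log2 change from Day 12 to Day 15 in +Wnt tissue for every tested member of the 32 gene lists, 1 point for each gene (orange rose, purple fell, grey did not pass), with a black bar at the median of a list and a dashed line at the median of all tested genes, -0.021. Early timing, mitosis and DNA replication lie at the low end, with medians of -1.36, -1.23 and -1.18, and the mesenchyme list at the high end with 2.52.

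The largest increases outside these lists included several secreted and matrix proteins. Of the genes whose higher group mean was 10 CPM or more and whose days did not overlap, Mmp9, a secreted gelatinase, was 0.440, 0.209 and 0.397 CPM at Day 12 and 29.7, 25.4 and 20.3 CPM at Day 15 (log2 5.29 ± 0.31, adjusted p = 3.39e-10). It moved the other way in +Fgf tissue, by -4.72, and the difference was 10.02 ± 0.44 (adjusted p = 9.54e-11). Tnc, the matrix glycoprotein tenascin C, was 0.629, 1.60 and 1.72 CPM and then 54.2, 41.5 and 42.8 CPM (log2 4.91 ± 0.32, adjusted p = 1.25e-09), with the opposite-strand gene 8030451A03Rik overlapping it. Htra1, a secreted serine protease, was 1.76, 1.39 and 2.18 CPM and then 63.6, 45.8 and 68.7 CPM (log2 4.84 ± 0.21, adjusted p = 1.07e-11). Separation of the days in these genes was a condition of their choice. Emp1, Sparcl1, Nmur2 and 1500015O10Rik rose by 4.95, 4.53, 4.44 and 5.50. 1500015O10Rik had 0 to 2 reads in the Day 12 libraries, so its mean at Day 15 was at least 82.2-fold higher than 3 reads would give. Adm, the peptide hormone adrenomedullin, and the respiratory chain isoforms Ndufa4l2 and Cox4i2 rose by 4.97, 4.77 and 4.69, and in +Fgf tissue by 4.37, 5.09 and 3.97. Rph3a, a synaptic vesicle protein, rose by 4.49 in +Wnt and 5.35 in +Fgf tissue.

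The largest decreases outside the eye field and timing lists included a transcription factor of ectodermal placodes, Foxi3, which was 15.3, 15.5 and 16.7 CPM at Day 12 and 1.12, 0.522 and 0.772 CPM at Day 15 (log2 -3.90 ± 0.16, adjusted p = 8.52e-12). Igdcc3, an immunoglobulin superfamily membrane protein, was 181, 144 and 143 CPM and then 10.7, 12.5 and 11.2 CPM (log2 -3.72 ± 0.13, adjusted p = 1.77e-12). Metrn, a secreted protein of neural progenitors, was 209, 217 and 221 CPM and then 23.4, 23.8 and 21.3 CPM (log2 -3.22 ± 0.09, adjusted p = 2.24e-13), and Gm26694 overlaps it on the opposite strand. For these genes every Day 15 library lay below every Day 12 library, which their selection required. In +Fgf tissue Metrn changed by 0.10 and Igdcc3 by -1.30, with differences of -3.32 ± 0.13 (adjusted p = 2.52e-11) and -2.43 ± 0.19 (adjusted p = 4.05e-08). Fndc3c1, Irs4, Inmt and Fignl2 also fell, with log2 changes of -3.02, -2.98, -2.95 and -2.69.

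**Figure D5:**
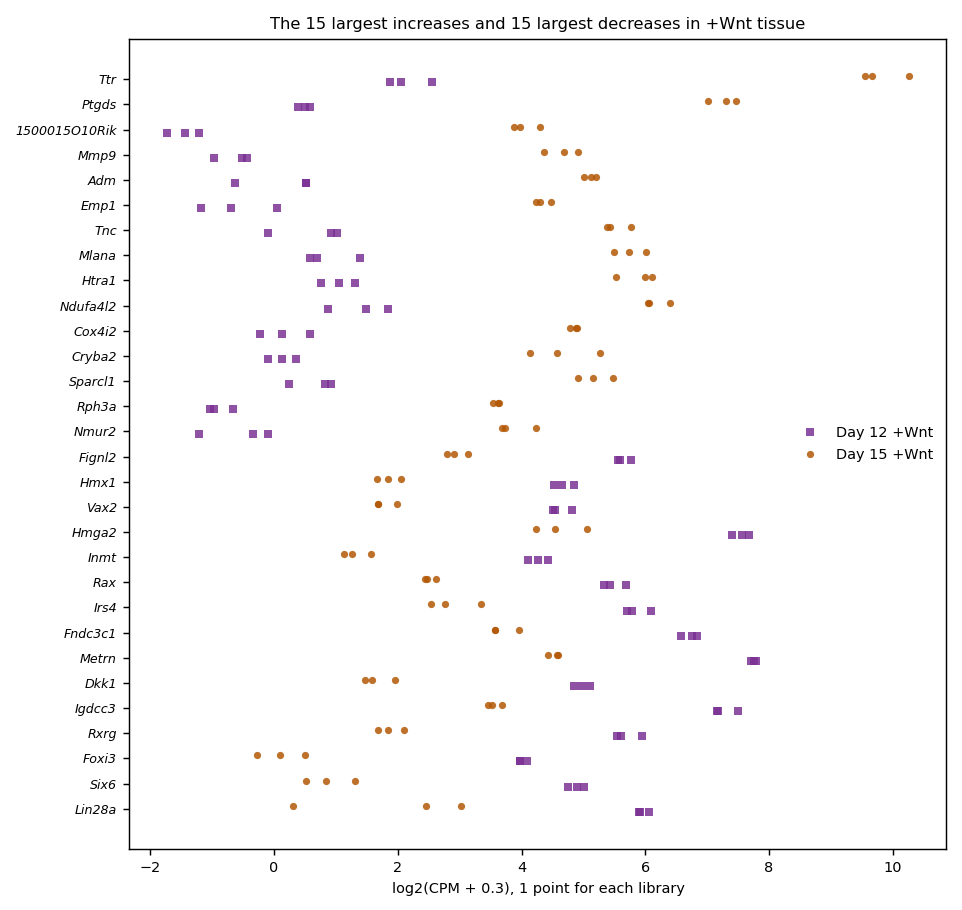
Log2(CPM + 0.3) of each of the 3 Day 12 and 3 Day 15 +Wnt libraries for the 15 genes that rose most and the 15 that fell most, of those whose higher group mean was 10 CPM or more and whose days did not overlap. The days stand apart in every row because the genes were chosen so. The log2 differences run from -4.03 for Lin28a to -2.69 for Fignl2 among the decreases, and up to 7.66 for Ttr among the increases.

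Over all genes the change from Day 12 to Day 15 differed between +Wnt and +Fgf tissue for 6636 genes (47.9% of those tested), with 2900 more positive in +Wnt (20.9%) and 3736 more negative (27%), and 1971 (14.2%) differed by at least 1. With the RNA integrity number of each sample, as the study lists it, as a covariate, 3842 passed. Every Day 15 +Fgf library has a lower listed number than any Day 12 library or Day 15 +Wnt library. RNA integrity and the difference between the treatments therefore cannot be fully told apart.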

How the data were processed

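RNA-Seq was performed on 15 samples of SFEBq tissue, 3 in each of 5 groups, which were assigned from the labels. Per the submitters' processing notes, the authors used bcl2fastq 1.8.4, FastQC 0.10.1, TopHat2 2.0.8b, Cuffdiff, Cufflinks 2.1.1 and edgeR 3.2.4 on the mm10 build. Libraries were made with a stranded mRNA kit, and whether the counting used strand is not given in the sources used here, so reads of genes with overlapping exons on opposite strands may be mixed (52 of the 183 tested genes named). The deposited values, called CPM by the authors, are a normalized signal, counts scaled by effective library size. They are whole multiples of 1 read within 0.01 for 100% of values above 0, so whole reads were recovered. Column totals ran from 936418 to 1075448.

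A gene entered the fit if 3 or more libraries held it at 1 CPM or above, relative to the column total (13845 of 23244). Log2(value + 0.3) was fitted with limma 3.58.1 (5 group means, moderation with a trend, two-sided, Benjamini-Hochberg adjustment), for the change in +Wnt tissue and for its difference from the change in +Fgf tissue. edgeR 4.0.16 and DESeq2 1.42.0 on the recovered reads, R 4.3.3 being used for all fits, were among 19 alternatives (pseudocount, filter, scaling, trend, RNA integrity and PCR cycles as covariates, replicate block, the libraries of the comparison alone, each library left out). Figures were drawn with Python 3.11.15 and matplotlib 3.10.9. The procedure was tested on simulated data. In each list the genes named are up to 4 increases and 4 decreases whose higher group mean was 10 CPM or more, with members that define the tissue. Over all genes, the 15 largest changes in each direction were taken from those that passed, with a higher group mean of 10 CPM or more and no overlap between days. Genes outside these rules (members given to complete a count of 5 or fewer, members with too few reads to test, Six3, Pdgfra and Pdgfrb) were chosen after their values were seen. Some items are not reported here. The comparison, lists and rules were chosen with earlier results of these data known. Exons were taken from GENCODE vM21 and promoters from RefSeq. Replicates are separate samples by label, and p values measure the spread between them. Standard errors and SDs rest on the spread between libraries. The floor of 3 reads in a library covers counting error only.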

Additional observations from a re-analysis of the deposited data

Results flagged for a closer look

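The change from Day 12 to Day 15 was compared between +Wnt and +Fgf tissue, and every value here was taken up because that difference itself passed its test. It passed for 6636 genes of 13845, and for 3842 with the RNA integrity number as a covariate. That number was lowest in Day 15 +Fgf tissue among these 4 groups. The genes named below passed in both fits. The values that follow are differences on the log2 scale, +Wnt minus +Fgf, over 3 libraries in each of the 4 groups.

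Among pigment genes the difference was 2.10 for Mitf, 1.42 for Tyr, 1.78 for Tyrp1, 1.86 for Dct, 2.48 for Pmel, 4.00 for Mlana and 4.03 for Gpnmb. Among genes of retinoid handling and secreted RPE products it was 1.97 for Stra6, 2.56 for Ptgds and 2.95 for Timp3. For the eye field genes Rax and Six6 it was -3.46 and -3.51, and for the photoreceptor factor Crx -5.85.

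For the cell cycle genes it was -1.23 (Mki67), -0.93 (Mcm5) and -1.07 (Ccnb1). For matrix and adhesion genes it was 10.02 (Mmp9), 5.63 (Bgn), 5.19 (Fbln2), 3.39 (Cdh3) and -0.85 (Cdh2). For signalling genes it was 3.56 (Egr1), 1.94 (Etv4), 1.75 (Spry2) and 3.68 (Jag1), and for Metrn and Igdcc3 -3.32 and -2.43.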

How the results depend on the processing

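The number of genes past the threshold in +Wnt tissue was 9417, and over the 19 alternatives it ranged from 7897 (filter of 10 CPM) to 9949 (no filter). edgeR called 9262 genes and DESeq2 8911, and 8815 and 8711 of these were called by limma too, all in the same direction. Leaving out 1 library gave 8806 to 9016 genes, and 2268 to 2360 with a log2 change of at least 1, against 2319, and 6007 to 6366 genes differed from +Fgf. With the filter of 10 CPM, which tests fewer genes (10971), 1401 changed by at least 1, and 1182 differed by at least 1 from +Fgf (1971 without it). With the RNA integrity number as a covariate 3842 genes differed from +Fgf rather than 6636, and the cause was not tested. That number was lower in the Day 15 +Fgf libraries than in all Day 12 and Day 15 +Wnt libraries. Quantile normalization moved the median of all genes from -0.021 to -0.099 and median-of-ratios scaling to 0.019. The replicate numbers did not pair the libraries (correlations of deviations from the group means of -0.25, -0.12 and -0.19). The fit with the replicate block called 9387 genes, 9312 of them shared, and among the genes named it ended the call of Cldn19 alone.

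Of 3468 values for the 183 tested genes named, 3359 kept their direction and side of the threshold, 96 no longer passed, 10 newly passed and 3 changed sign, and 155 genes kept both in every alternative that was run. Of 551 values for the differences from +Fgf, 550 did so, and that of Ttr (2.30) passed with a pseudocount of 1 (2.97) but was 0.92 with edgeR and 0.89 with DESeq2. The values that changed sign did not pass under the setting concerned, quantile normalization, with Axin2 at 0.10, Otx2 at 0.037 and Tfap2a at -0.24 (of these Tfap2a alone had passed, at 0.38), and the cause was not tested. Leaving out any 1 of the libraries in brackets ended these calls, with the log2 changes given: Aldh1a1 (Day 12 replicate 2, -1.07), Apcdd1 (Day 12 replicates 1 or 2 or Day 15 replicates 1 or 2, 0.42 to 0.55), Cdkn2c (Day 12 replicate 3, 0.33), Cldn19 (Day 12 replicates 1, 2 or 3 or Day 15 replicates 1 or 3, -0.51 to -0.38), Idi1 (Day 12 replicate 3 or Day 15 replicate 1, -0.19 to -0.13), Igf2 (Day 12 replicates 1, 2 or 3 or Day 15 replicates 2 or 3, -0.36 to -0.26), Isl1 (Day 12 replicate 3 or Day 15 replicate 3, -0.73 to -0.67), Mvk (Day 12 replicates 2 or 3 or Day 15 replicate 2, -0.22 to -0.19), Neurod4 (Day 12 replicate 3 or Day 15 replicate 1, -0.66 to -0.63), Nkd1 (Day 12 replicates 1 or 3 or Day 15 replicates 2 or 3, -0.18 to -0.16), Slc30a4 (Day 15 replicate 3, -0.15), Spred1 (Day 12 replicate 3 or Day 15 replicate 1, -0.15 to -0.12), Sulf1 (Day 12 replicate 3 or Day 15 replicate 3, -0.32 to -0.26), Tfap2a (Day 12 replicates 1 or 3 or Day 15 replicates 1 or 2, 0.26 to 0.40) and Zic2 (Day 15 replicates 1 or 3, -0.16). It added the call of Mycn (Day 12 replicate 1 or Day 15 replicate 1, 0.26). Depth limits genes under about 3 reads in a library, such as Rpe65 and Rgr, to an upper bound.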
